A study of Mus musculus with 4 samples.

Results

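The genes described here are targets and regulators of the tumour suppressor p53 together with the genes that carry out or restrain apoptosis. A list of 53 genes was given by name, and 48 of them could be read from a probe set with 1 gene symbol, out of 19938 named genes on the array. They comprised 2 regulators of p53, 17 targets in arrest, repair and stress, 13 members of the BCL2 family, 6 death receptors and adaptors, and 10 caspases, activators and inhibitors. Trp53, Gdf15, Bax and Ripk1 were on no listed probe set, and Cdkn1a was only on a probe set shared with another gene, so these 5 were not analysed here. All 4 samples came from a single stable clone of NIH3T3, an established mouse fibroblast line, called the p19 clone in the labels. The clone carried the plasmids pBI-EGFP-FLAG-mCtcfl and pTA-N, a Tet-Off pair in which doxycycline keeps FLAG-tagged mouse Ctcfl repressed. Controls (2 samples) received doxycycline at 2 µg/ml, and Ctcfl samples (also 2) were kept for 48 h in medium lacking it. Effects of the drug, of CTCFL and of any other product of the plasmids cannot be told apart. Total RNA from each sample was read on 1 Affymetrix array as log2 RMA values, a background-corrected and normalised probe set summary.

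p53 is a transcription factor held low by the ubiquitin ligase MDM2 and its partner MDM4. DNA damage and other stresses release it, mainly at the level of the protein, and the messenger RNAs of its targets are therefore a usual readout of its activity. Some targets halt the cell cycle or aid repair. Others feed apoptosis, in which BH3-only proteins free BAX and BAK to open the mitochondrial outer membrane, cytochrome c and APAF1 activate caspase-9, and death receptors at the surface activate caspase-8. NIH3T3 cells are known to lack the Cdkn2a locus, whose ARF product restrains MDM2. CTCFL, also called BORIS, is a germ-line paralog of the insulator protein CTCF.

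Promoter sequences of 6 members are shown because Tnfrsf23, Plk3, Bcl10 and Gtse1 had the smallest unadjusted p-values among the 48 members, and because Mdm2 and Ccng1 are classical p53 targets. Each is the 250 bases before a start site listed by RefSeq (GRCm38.p6), 5′ to 3′ on the strand of the gene. Capitals mark the letters of 3 motifs searched on both strands. These were the p53 half-site, the CTCF core, here CCA, AG and GGC with 2 free bases in each gap, and the CCAAT box CCAAT.
Tnfrsf23, chr7:143685876-143686125, minus strand: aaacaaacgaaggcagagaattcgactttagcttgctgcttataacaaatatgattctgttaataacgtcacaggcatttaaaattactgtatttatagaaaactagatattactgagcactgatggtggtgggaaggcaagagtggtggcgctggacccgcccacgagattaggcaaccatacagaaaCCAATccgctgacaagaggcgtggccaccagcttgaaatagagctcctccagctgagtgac
Plk3, chr4:117133964-117134213, minus strand: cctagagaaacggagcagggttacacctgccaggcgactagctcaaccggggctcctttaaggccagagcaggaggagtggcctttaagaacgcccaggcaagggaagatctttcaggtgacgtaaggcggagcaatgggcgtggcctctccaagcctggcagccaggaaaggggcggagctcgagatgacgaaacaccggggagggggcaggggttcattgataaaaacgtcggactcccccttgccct
Bcl10, chr3:145924012-145924261, plus strand: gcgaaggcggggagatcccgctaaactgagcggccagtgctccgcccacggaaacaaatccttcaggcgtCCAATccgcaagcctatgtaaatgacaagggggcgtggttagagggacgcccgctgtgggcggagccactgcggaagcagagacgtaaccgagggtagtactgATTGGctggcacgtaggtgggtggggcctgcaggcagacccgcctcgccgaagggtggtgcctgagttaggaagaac
Gtse1, chr15:85859457-85859706, plus strand: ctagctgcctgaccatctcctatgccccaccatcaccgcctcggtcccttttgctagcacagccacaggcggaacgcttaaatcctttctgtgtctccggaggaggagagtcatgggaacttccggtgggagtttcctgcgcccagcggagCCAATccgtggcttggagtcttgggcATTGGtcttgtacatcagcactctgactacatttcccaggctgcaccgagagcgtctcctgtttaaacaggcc
Mdm2, chr10:117710759-117711008, minus strand: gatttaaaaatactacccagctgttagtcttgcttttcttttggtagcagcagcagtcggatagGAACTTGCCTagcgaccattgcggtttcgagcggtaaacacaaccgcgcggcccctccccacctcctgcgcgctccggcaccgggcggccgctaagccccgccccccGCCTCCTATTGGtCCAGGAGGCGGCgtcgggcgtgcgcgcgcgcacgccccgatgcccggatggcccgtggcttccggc
Ccng1, chr11:40755287-40755536, minus strand: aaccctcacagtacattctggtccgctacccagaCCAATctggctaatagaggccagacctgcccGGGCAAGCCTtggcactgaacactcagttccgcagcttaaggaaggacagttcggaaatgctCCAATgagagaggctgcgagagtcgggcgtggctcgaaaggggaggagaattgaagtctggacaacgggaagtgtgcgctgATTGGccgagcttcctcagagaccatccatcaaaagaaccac

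Windows of 300 bases, from 250 before to 50 after a listed start, were found for 41 of the 48 members, and a gene with several starts counted once. The p53 half-site was present in 9 of these 41 members (22%), against 8.54% of 17492 protein-coding genes. Many members were listed because p53 is known to bind near them, so this share is a description of the list. In Mdm2 the letters were GAACTTGCCT, beginning 186 bases before the start. In Ccng1 they were GGGCAAGCCT, beginning 185 bases before the start. Ei24 had GGGCATGCCC and Polk GAACTAGCCT before their starts, and Gtse1 had GGGCTTGCCT just after a second listed start, outside the stretch shown above. The CTCF core was found in 3 of 41 members (7.32%), namely Mdm2, Bbc3 and Bcl2l1, against 2.75% of coding genes. The Mdm2 promoter held it in both orientations, and the copy nearer the 5′ end of the window overlapped the CCAAT box of that promoter. CCAAT itself was in 51.2% of members and 42.3% of coding genes, among them Tnfrsf23, Bcl10, Gtse1, Mdm2 and Ccng1 but not Plk3. Member windows were richer in G and C, with a median of 63.5% against 56.3%. These are matches of letters and describe no binding in these cells.

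The labels were checked on the transgene. Ctcfl read 7.77 and 7.71 on the control arrays and 10.37 and 10.35 on the Ctcfl arrays, a 6.15-fold difference (adjusted p = 5.38e-04 by limma). Both control values lay above the arrays' upper quartiles (7.40 to 7.43), so the controls were not free of Ctcfl signal. The arrays had medians of 5.2 to 5.24 and could not be graded by detection calls. Fibroblast markers averaged from 7.71 to 12.12 over the arrays, while markers of epithelial, blood, endothelial, muscle and adipose cells lay between 3.92 and 6.64. The fibroblast list as a whole averaged 10.38 and 10.39 on the control arrays and 10.25 and 10.21 on the Ctcfl arrays. Pdgfrb was lower by 0.56 and Col3a1 by 0.38, and neither passed over all genes (adjusted p = 0.18 and 0.288 by limma). Fn1, S100a4, Col1a2 and Vim lay between -0.18 and -0.055, and Col1a1 and Thy1 had 0.065 and 0.005. Whether the shift of the list bears on the genes below was not tested. The labels do not say if replicates were separate cultures, so the spread between them may be technical.

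No p53 target or apoptosis gene of the list passed an adjusted p of 0.05 over all genes between Ctcfl and control arrays by limma, where 9 genes on the array did (0.0451%). Members' adjusted p-values ran from 0.348 to 0.987. At the brightest probe set of each gene, log2 differences between Ctcfl and control arrays ranged from -0.205 for Phlda3 to 0.34 for Tnfrsf23. Their median was 0.035 against 0.00 over all genes. That median was 0.015 without control replicate 2, 0.0525 without Ctcfl replicate 1 and 0.015 with median centring. A difference of at most 1.2-fold was measured for 46 of 48 members (95.8%), against 91.2% of all genes, and the other 2 were Tnfrsf23 and Bcl10. The 95% interval of the limma fit lay inside 1.5-fold in both directions for 47 members (97.9%), against 93.7% of all genes. Bcl10 was the exception, with an interval from 0.03 to 0.61. A change in signal of 1.5-fold or more at this time point is thus outside the interval for each of those 47 members at its brightest probe set. For Cycs a dimmer probe set had a difference of -0.48, and no interval is given for it here. Smaller changes may not be resolved with 2 arrays per group. For Perp, Fas, Pmaip1 and Bik, below the arrays' medians, the signal may not follow the transcript, so the interval does not bound its change. The same may hold for members with means up to 6.64, a level reached by markers of other cell types. Bbc3, Bmf, Btg2, Birc2 and Bcl2 are among them. The intervals also rest on a spread between replicates that may be technical.

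**Figure D1:**
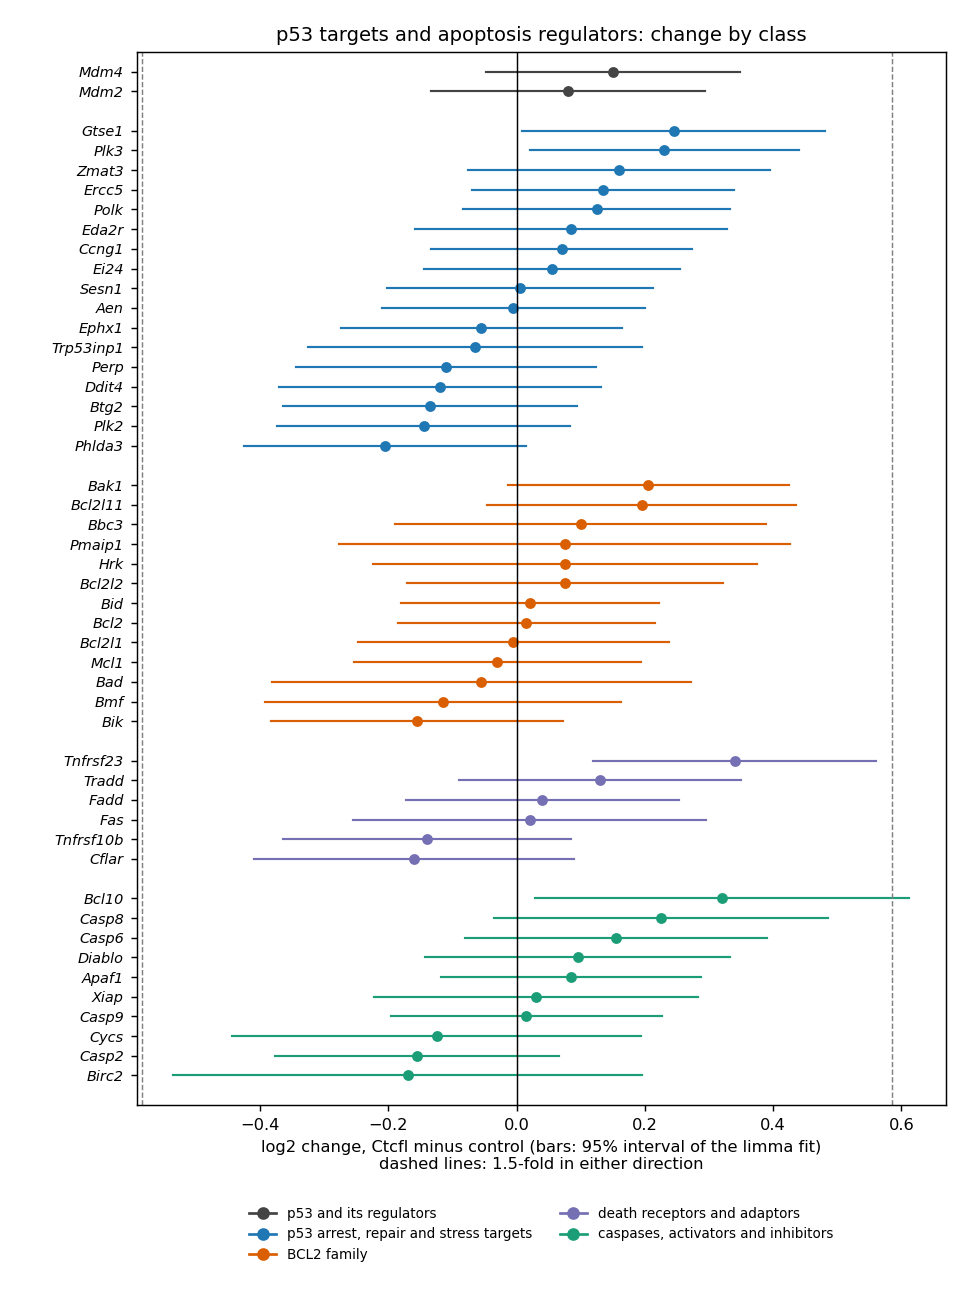
Log2 change (Ctcfl minus control) of each of the 48 measured members, grouped by class, with the 95% interval of the limma fit as a horizontal line and 1.5-fold in either direction as dashed lines. Points are for the brightest probe set of each gene and run from -0.205 (Phlda3) to 0.34 (Tnfrsf23). The interval of Bcl10 alone crosses a dashed line.

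At an unadjusted p under 0.05 there were 4 members (8.33%), Tnfrsf23, Plk3, Bcl10 and Gtse1, against 10.7% of all genes. All 4 were higher in the Ctcfl arrays, where the share over all genes was 5.36% in that direction and 5.32% in the other. With each array left out in turn, the difference ran from 0.27 to 0.41 for Tnfrsf23 and from 0.19 to 0.27 for Plk3. It ran from 0.165 to 0.475 for Bcl10 and from 0.155 to 0.335 for Gtse1. Both Ctcfl arrays lay above both control arrays in 16 members (33.3%), against 20.6% of all genes, and below them in 8 (16.7%), against 20.6%. In the other 24 members the groups overlapped. Higher means were found for 30 members and lower means for 18, and 49.9% of all genes had a higher mean.

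**Figure D2:**
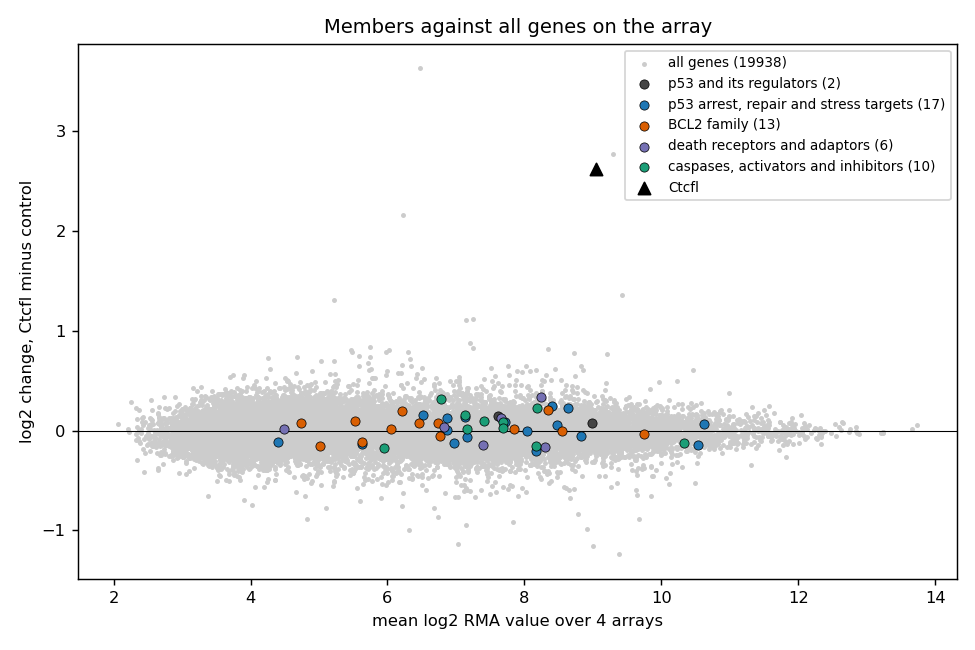
Log2 change (Ctcfl minus control, vertical axis) against mean log2 RMA value over the 4 arrays (horizontal axis) for 19938 genes in grey, the members coloured by class, and Ctcfl as a triangle at 2.62. The members lie within the band of other genes, between -0.205 and 0.34.

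Among the regulators of p53, Mdm4 separated the groups and Mdm2 did not. Mdm2, the ligase that p53 itself induces in a feedback loop, was 9.0 and 8.90 on the control arrays and 9.0 and 9.06 on the Ctcfl arrays. Control replicate 1 and Ctcfl replicate 1 gave the same value, so the groups overlapped. The difference was 0.08 (SE 0.09, 95% interval -0.13 to 0.29). Mdm4, which binds p53 and blocks its activation domain, was 7.54 on both control arrays and 7.68 and 7.70 on the Ctcfl arrays. Its Ctcfl values were both higher by a narrow margin (0.15, SE 0.08, adjusted p = 0.555 by limma).

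The 17 arrest, repair and stress targets had 9 higher and 8 lower means and a median of 0.005. None passed over all genes, and 2 of 17 (11.8%, against 10.7% of all genes) were at an unadjusted p under 0.05, both with higher means. Gtse1, a G2 and S phase protein that binds p53 and lowers its activity, was 8.30 and 8.25 in control and 8.43 and 8.61 in Ctcfl samples. Ctcfl replicate 2 was the highest of the 4, and the groups did not overlap (0.245, SE 0.10, 95% interval 0.01 to 0.48, adjusted p = 0.457). The difference was 0.155 without that array. Plk3, a polo-like kinase of stress signalling, was 8.56 and 8.48 in control and 8.78 and 8.72 in Ctcfl samples. Replicates lay close together in both groups (0.23, SE 0.09, 95% interval 0.02 to 0.44, adjusted p = 0.441). Plk2, a related kinase and also a p53 target, had a difference of the opposite sign, with 10.68 and 10.54 against 10.42 and 10.51 (-0.145, SE 0.09).

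Phlda3, a p53-induced inhibitor of AKT, had the lowest difference of all members at their brightest probe sets. It was 8.33 and 8.21 on the control arrays and 8.10 and 8.03 on the Ctcfl arrays, with no overlap (-0.205, SE 0.09, 95% interval -0.43 to 0.02, adjusted p = 0.484). Zmat3, an RNA-binding p53 target, was 6.49 and 6.38 in control and 6.67 and 6.52 in Ctcfl samples, again without overlap but in the opposite direction (0.16, SE 0.10). The repair genes Ercc5, a nucleotide excision endonuclease, and Polk, a translesion polymerase, were higher by 0.135 and 0.125 with groups apart.

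Other targets gave smaller or less separated values. Ccng1, the cyclin G1 gene whose promoter is shown above, was 10.60 and 10.59 against 10.63 and 10.70, a difference of 0.07 (SE 0.08). Its Ctcfl values were both higher, and the interval of the difference ran from -0.13 to 0.27. Ei24, an endoplasmic reticulum protein, had 0.055. The death-domain-free receptor Eda2r had 0.085, with overlapping groups. Sesn1, a sestrin that restrains mTORC1, had 0.005 and the exonuclease gene Aen had -0.005. Negative values were also measured for the antiproliferative gene Btg2 (-0.135), the mTORC1 inhibitor Ddit4 (-0.12), the desmosomal protein gene Perp (-0.11), Trp53inp1 (-0.065), which promotes p53 activity, and the epoxide hydrolase Ephx1 (-0.055). Of these, Btg2 and Perp separated the groups. Perp averaged 4.40 over the arrays, below their medians, where signal and background could not be separated.

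In the BCL2 family, 8 of 13 members had higher and 5 lower means, with a median of 0.02. None of the 13 was at an unadjusted p under 0.05, against 10.7% of all genes. The family divides into pore formers, BH3-only activators and protective members. Bak1, the measured pore former, was 8.29 and 8.18 in control and 8.40 and 8.48 in Ctcfl samples. The groups did not overlap (0.205, SE 0.09, 95% interval -0.01 to 0.42, adjusted p = 0.484).

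The 8 BH3-only genes ranged from -0.155 to 0.195. Bcl2l11, which encodes BIM, was 6.22 and 6.02 on the control arrays and 6.31 and 6.32 on the Ctcfl arrays. Both Ctcfl values were above the controls (0.195, SE 0.10), and the gap to control replicate 1 was small. Bbc3, the p53 target PUMA, was 5.51 and 5.45 against 5.73 and 5.43. Here Ctcfl replicate 1 was the highest value and replicate 2 the lowest, so the mean difference of 0.10 (SE 0.12) rested on a single array and was -0.05 without it. The other p53-induced member, Pmaip1 or NOXA, was 4.53 and 4.87 against 4.90 and 4.65 (0.075, SE 0.14), a scatter within groups wider than the difference, which ran from -0.095 to 0.245 when each array was left out. Bik, at 5.07 and 5.10 against 4.85 and 5.01, was the lowest of this class in its difference (-0.155, SE 0.09). Pmaip1 and Bik both lay below the arrays' medians, where signal and background could not be separated. Bmf was 5.82 and 5.54 against 5.55 and 5.58 (-0.115, SE 0.11), and control replicate 1 stood above the other 3 arrays. The difference of Bmf was 0.025 without that array and -0.255 without control replicate 2. Hrk (0.075), Bid (0.02) and Bad (-0.055) had overlapping groups.

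The 4 protective members, which hold the pore formers in check, ranged from -0.03 to 0.075. Bcl2 was 6.06 and 6.02 in control and 6.06 and 6.05 in Ctcfl samples (0.015, SE 0.08). Bcl2l1, which encodes BCL-XL, was 8.56 and 8.53 against 8.44 and 8.64 (-0.005, SE 0.10). Mcl1, a short-lived protector whose loss sensitises many cells, was 9.76 and 9.77 against 9.66 and 9.81 (-0.03, SE 0.09). Bcl2l2, which encodes BCL-W, had 0.075. The groups overlapped in all 4 genes.

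**Figure D3:**
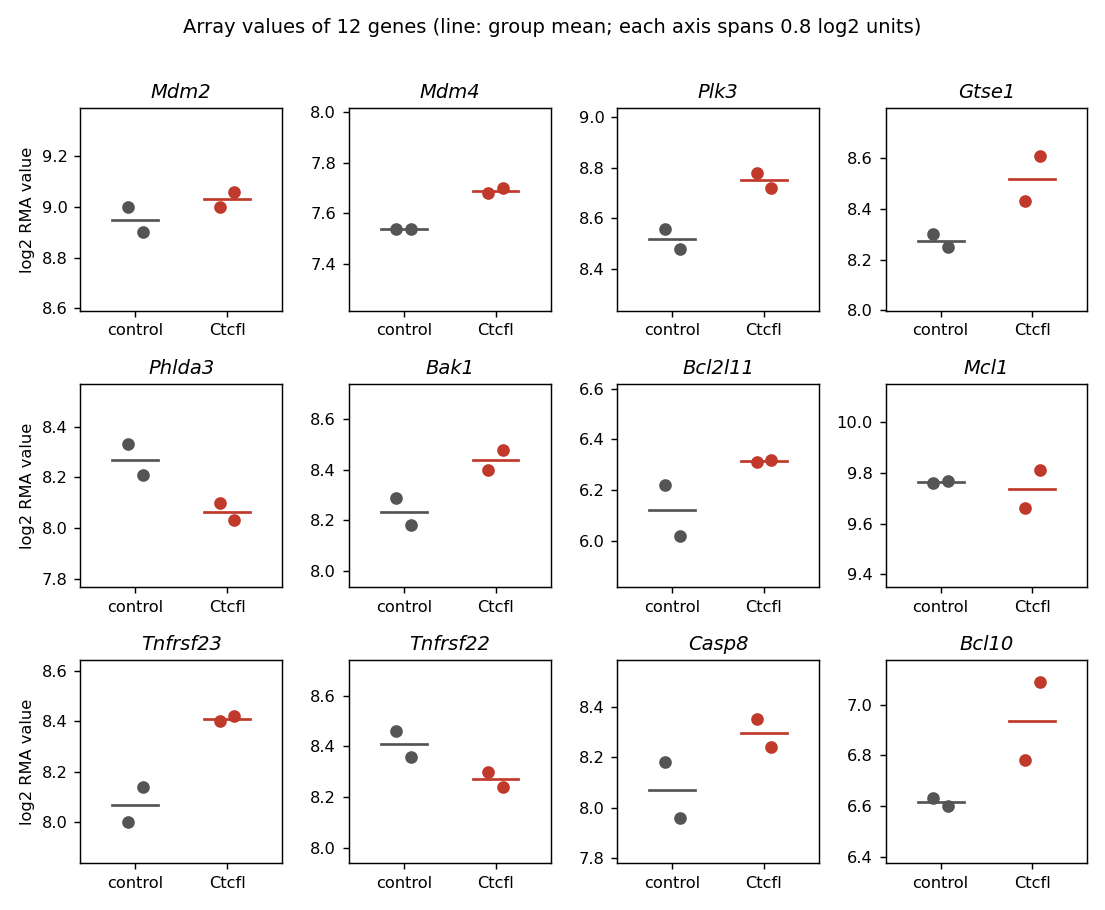
Log2 RMA values on each array for 12 genes, with control arrays in grey, Ctcfl arrays in red and a line at each group mean; every axis spans 0.8 log2 units. Tnfrsf23 is at 8.0 and 8.14 in control and 8.40 and 8.42 in Ctcfl samples, while its neighbour Tnfrsf22 is lower in the Ctcfl samples and Mcl1 overlaps.

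Of the 6 death receptors and adaptors, 4 had higher and 2 lower means, with a median of 0.03. Tnfrsf23, which encodes a mouse decoy receptor for TRAIL without a death domain, had the widest difference of all members at their brightest probe sets. It was 8.0 and 8.14 on the control arrays and 8.40 and 8.42 on the Ctcfl arrays. The gap between the groups exceeded the spread within either of them (0.34, SE 0.09, 1.27-fold, 95% interval 0.12 to 0.56). It did not pass over all genes (adjusted p = 0.348 by limma), although it did with an intensity trend and robust variances (adjusted p = 0.0236). In that fit it was the only member among 479 genes called (2.4%). The difference ran from 0.27 to 0.41 when each array was left out.

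Tnfrsf26, Tnfrsf22 and Tnfrsf23 follow each other in the RefSeq gene order, and their differences were not all in 1 direction. Tnfrsf22, a second decoy receptor for TRAIL, was 8.46 and 8.36 in control and 8.30 and 8.24 in Ctcfl samples. Its groups were apart, with the Ctcfl values lower (-0.14, SE 0.09, adjusted p = 0.604). Tnfrsf26 was 3.91 and 4.0 against 4.57 and 4.39 (0.525, SE 0.10, adjusted p = 0.232). Both Ctcfl values of Tnfrsf26 were higher, at a level below the arrays' medians. The difference between the neighbours was not tested.

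Receptors of this class that signal death were Fas and Tnfrsf10b. Fas, the receptor for FAS ligand and a p53 target, was 4.60 and 4.36 in control and 4.43 and 4.57 in Ctcfl samples (0.02, SE 0.11). Its groups overlapped, below the arrays' medians and near their lower quartile (4.09 to 4.12), where signal and background could not be separated. Tnfrsf10b, the mouse death receptor for TRAIL, was 7.54 and 7.40 against 7.30 and 7.36, lower in both Ctcfl samples (-0.14, SE 0.09). The adaptor genes Tradd, at 7.62 and 7.57 against 7.66 and 7.79, and Fadd had 0.13 and 0.04, with groups apart for Tradd only.

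Cflar and Casp8, neighbours among the protein-coding genes in RefSeq order, whose proteins meet at the receptor complex, had differences of opposite sign. Cflar encodes c-FLIP, which restrains caspase-8, and was 8.44 and 8.33 on the control arrays and 8.13 and 8.32 on the Ctcfl arrays. Ctcfl replicate 2 lay next to control replicate 2, and the groups were apart by the smallest step the values allow (-0.16, SE 0.10). Leaving out Ctcfl replicate 1 gave -0.065. Its 2 other probe sets had -0.14 and -0.025. Casp8, the initiator caspase, was 8.18 and 7.96 in control and 8.35 and 8.24 in Ctcfl samples. The Ctcfl values were both higher (0.225, SE 0.11, 95% interval -0.04 to 0.49, adjusted p = 0.513). The difference was 0.115 without control replicate 2 and 0.335 without control replicate 1. Neither gene passed.

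In the apoptosome and caspase class, 7 of 10 members had higher and 3 lower means, with a median of 0.0575, and 1 (10%, against 10.7% of all genes) was at an unadjusted p under 0.05. That was Bcl10, a CARD adaptor that links receptors to NF-kB, at 6.63 and 6.60 in control and 6.78 and 7.09 in Ctcfl samples. Ctcfl replicate 2 stood well above Ctcfl replicate 1, and the difference of 0.32 (SE 0.12, 1.25-fold, adjusted p = 0.441) was 0.165 without it. Apaf1, the scaffold of the apoptosome and a p53 target, was 7.61 and 7.67 against 7.73 and 7.72. The groups were apart by little (0.085, SE 0.08). Casp9, the caspase it activates, was 7.12 and 7.18 against 7.12 and 7.21, with overlap (0.015, SE 0.09).

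Other caspases and their inhibitors gave values on either side of 0. Casp6, an executioner, was 7.10 and 7.01 in control and 7.13 and 7.29 in Ctcfl samples (0.155, SE 0.10). Casp2, an initiator linked to DNA damage, was 8.31 and 8.18 against 8.12 and 8.06, the reverse direction with the same size (-0.155, SE 0.09). Both separated the groups and neither passed. Xiap, the direct caspase inhibitor, was 7.76 and 7.58 against 7.77 and 7.63, where the replicates differed more than the groups (0.03, SE 0.10). Its antagonist Diablo had 0.095 with overlap. Birc2, the ubiquitin ligase cIAP1, had -0.17 with the widest standard error of all members (0.15), and its second probe set had -0.055.

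Cytochrome c was measured by 3 probe sets named Cycs that differed in size of change. The brightest was 10.50 and 10.28 in control and 10.12 and 10.41 in Ctcfl samples (-0.125, SE 0.13), with overlapping groups. A second one had -0.065, and the dimmest was 5.81 and 5.77 against 5.43 and 5.19, a difference of -0.48. The groups were apart there. With that probe set Cycs would lie outside the range given above for the members, which rests on the brightest probe sets. Processed copies of this gene are known in the mouse genome, so which transcripts the probe sets share is uncertain.

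Further genes of the p53 pathway, drawn from a list of 30, had a median of 0.0425, with 18 higher and 11 lower means. None passed over all genes, and 3 (10%, against 10.7% of all genes) were at an unadjusted p under 0.05, 2 higher and 1 lower. Chek2, the checkpoint kinase that phosphorylates p53, was 7.64 and 7.69 in control and 8.09 and 8.04 in Ctcfl samples. Its replicates agreed closely, and the groups were well apart (0.40, SE 0.08, 1.32-fold, adjusted p = 0.263). Sesn3, a sestrin, was 6.57 and 6.67 against 6.89 and 7.11 (0.38, SE 0.11, adjusted p = 0.354). Dram1, a p53 target in autophagy, was 6.69 and 6.60 against 6.32 on both Ctcfl arrays, lower in both (-0.325, SE 0.09, adjusted p = 0.342). Cdkn2a, a locus these cells are known to lack, read 5.12 and 5.08 against 5.18 and 5.35, so a reading at about the arrays' medians does not show that a transcript was present. The members with a mean below those medians were Perp, Fas, Pmaip1 and Bik. A mean above them is no proof of a transcript either, since markers of other cell types reached 6.64. Bbc3 (5.43 to 5.73) and Btg2 (5.48 to 5.72), among others, lie in that range.

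From a list of 35 other apoptosis genes, 32 were measured, with a median of -0.045 and 11 higher and 21 lower means. None passed, and 4 (12.5%, against 10.7% of all genes) were at an unadjusted p under 0.05. Tnfrsf26, described above, and Naip2 were higher, and Bok and Tnfrsf21 were lower. Naip2, an inflammasome sensor of the inhibitor-of-apoptosis family, was 6.54 and 6.43 in control and 6.80 and 6.99 in Ctcfl samples (0.41, SE 0.10, adjusted p = 0.323). Bok, a BAX-related pore former, was 7.99 and 7.90 against 7.67 and 7.55, lower in both Ctcfl samples (-0.335, SE 0.09, adjusted p = 0.348). Tnfrsf21, which encodes death receptor 6, was 5.17 and 5.05 against 4.89 and 4.87, also lower (-0.23, SE 0.09, adjusted p = 0.446), at a level below the arrays' medians.

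Cell cycle genes that fall when p53 is active were compared as well. The 14 measured, of 15 listed, had a median of 0.005 and ranged from -0.12 to 0.13, with 7 higher and 7 lower means. None of the 14 was at an unadjusted p under 0.05, against 10.7% of all genes. The proliferation marker Mki67 was 10.03 on both control arrays and 10.09 and 10.13 on the Ctcfl arrays, and Ccnb2, the cyclin B2 gene, had the lowest difference in this list at -0.12.

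Differences were also set out by promoter letters. The 9 members with a p53 half-site had a median difference of 0.055, from -0.17 for Birc2 to 0.245 for Gtse1, and the 32 without one had 0.035. For the CTCF core, Mdm2 had 0.08, Bbc3 had 0.10 and Bcl2l1 had -0.005, and the 38 members without the core had a median of 0.035. These medians are descriptions, and no test was made of their difference.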

How the data were processed

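RNA of 4 NIH3T3 samples, 2 per group, was measured on 1 Affymetrix array each. The deposited values are on a log2 scale, and the authors obtained them by RMA in Expression Console, per the labels. Its version and settings are not given in the sources used here. RMA normalises arrays to a common distribution, so a change shared by most genes would not show. The number of arrays limits the precision. Of 35511 probe sets with a value, 21789 had 1 symbol in the platform annotation of GEO, 1621 had several and 12101 none. Symbols were checked against RefSeq (GRCm38.p6), where 21698 matched and 0 changed. The brightest probe set represented each gene. The comparison of groups used lmFit and eBayes of limma 3.58.1 (R 4.3.3, two-sided, prior degrees of freedom 4.21) over 19938 genes, with Benjamini-Hochberg adjustment at 0.05. The 95% intervals are those of the moderated statistic. With 2 against 2 arrays an exact permutation test cannot go below 0.333 and was not used. Members, lists and alternatives were chosen with earlier results of these data known. Given with all array values were Trp53, Mdm2, Mdm4, Cdkn1a, Bax, Bak1, Bbc3, Bcl2, Bcl2l1, Mcl1, Fas, Casp8, Casp9, Apaf1 and Xiap where measured, up to 4 members per class by unadjusted p, and listed pathway genes at an unadjusted p under 0.05 with Cdkn2a and Tnfrsf22. Other genes shown with array values (Plk2, Ccng1, Pmaip1, Cycs, Mki67) were added after their values were seen. Alternatives changed the normalization, the filter on dim genes, the probe set rule, the variance model, the pairing and the arrays used. The fit was tested on simulated data. Motifs were searched in RefSeq promoter windows. Figures were drawn with matplotlib 3.10.9.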

Additional observations from a re-analysis of the deposited data

How the results depend on the processing

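The number of genes called over the whole array, 9, was 31 with median centring, 20 without the dimmest 33.3% of genes, 479 with robust variances on an intensity trend, and 0 over all 35511 probe sets, with ordinary t statistics, with the replicate block and with any array left out. Where no gene was called, 1329 to 2764 genes or probe sets had an unadjusted p under 0.05. Ordinary t statistics left out 14 genes with equal replicates. Members called with all 4 arrays were 0 except under the trend, where 1 passed. Ctcfl itself did not pass over all probe sets (adjusted p = 0.066 by limma) or with the replicate block (adjusted p = 0.071 by limma). It also did not pass with ordinary t statistics (adjusted p = 0.424). The 0 members called in those settings therefore says nothing about the members. Members at an unadjusted p under 0.05 numbered 4 in the comparison reported and 2 with median centring. They numbered 1 over all probe sets, 8 under the trend and 1 with the replicate block. The share of all genes at that p was 10.7% in the comparison reported and 10.3% with median centring. That share was 6.66% in the fit over all probe sets, 13.5% under the trend and 7.36% with the replicate block. The median over all members, 0.035, ran from 0.015 to 0.0525 with each array left out and was 0.015 with median centring and 0.045 with quantile normalization. The median of the arrest, repair and stress targets, 0.005, was 0.03 without the dimmest genes, 0.0175 with quantile normalization and -0.015 with median centring and ran from -0.015 to 0.05 with each array left out, and that of the BCL2 family, 0.02, ran from 0.01 to 0.095 and was 0.0325 with quantile normalization and 0.00 with median centring. That of death receptors and adaptors, 0.03, ran from -0.0575 to 0.1175 and was 0.01 with median centring. Quantile normalization and the mean of probe sets left the counts of genes and members within 1.5 times. The causes were not tested. Deviations of same-numbered arrays had a weak negative correlation over all genes (-0.102) and -0.336 over members. A crossed pairing was therefore added after seeing the data. It called 0 genes and 0 members, with 3 members at an unadjusted p under 0.05, against 10.6% of all genes. Ctcfl itself did not pass there (adjusted p = 0.463 by limma). For the 30 members shown with array values, 370 of 389 values under alternatives kept direction and side of the threshold, 1 (Tnfrsf23) newly passed and 18, in 10 genes (Bbc3, Bcl2, Bcl2l1, Bmf, Casp9, Cycs, Fas, Mcl1, Pmaip1 and Xiap), turned sign, at values from -0.10 to 0.095. Settings that called 0 genes hold no value past the threshold, so their share of the 370 says nothing about passing. The fit over all probe sets and those that changed only the variance model or the pairing left each log2 change as it was. The mean of probe sets did so for members with a single probe set. The values from those settings could not turn sign, so their share of the 370 says nothing about direction. Probe sets at or below the arrays' medians cannot be told from background.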
